A study of Mus musculus with 12 samples.

Results

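The inflammatory CC chemokines of mouse chromosome 11 were measured by RNA-seq in 4T1 mammary tumours. The 10 genes studied, Ccl2, Ccl3, Ccl4, Ccl5, Ccl6, Ccl7, Ccl8, Ccl9, Ccl11 and Ccl12, were taken by name from a count table of 57186 genes. All 10 passed the filter on low counts, which left 19255 genes for testing. The study compared 12 tumours, 6 in each of 2 groups, and all of them grew from 4T1, a mouse triple-negative breast cancer line. The 6 WT tumours came from parental cells with no edit named. The 6 Tn tumours came from cells in which Cosmc (C1galt1c1), the chaperone needed to make O-linked glycans longer, was silenced with CRISPR/Cas9, so that they are labelled Tn+ for the truncated glycan. The tissue is labelled breast, and the text of the series calls the tumours biological replicates that were selected to cover a range of sizes. The strain and age of the mice, the size of each tumour, the number of mice, and whether the silenced line is 1 clone are not given in the sources used here.

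Chemokines are small secreted proteins that guide leukocytes along concentration gradients through G protein-coupled receptors. The CC family, named for adjacent cysteines near the start of the protein, draws mainly monocytes, macrophages, T cells, natural killer cells, dendritic cells and eosinophils. In tumours these chemokines can be made by cancer cells, macrophages, fibroblasts and lymphocytes, and several of them share a receptor.

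RefSeq promoters were at hand for 5 of the 10 genes, Ccl3, Ccl6, Ccl8, Ccl9 and Ccl12, and those of Ccl2, Ccl4, Ccl5, Ccl7 and Ccl11 were not used here. The 250 bases before the start of 3 genes are shown: Ccl12 and Ccl8 because they are neighbours of which the first passed the test and the second did not (the difference of their changes was not tested), and Ccl9 because it was the member closest to no change. They are from build GRCm38.p6, at chr11:82101595-82101844 (plus strand) for Ccl12, chr11:82114935-82115184 (plus strand) for Ccl8 and chr11:83578637-83578886 (minus strand) for Ccl9. Capitals mark matches on either strand to TATAAAA, to the AP-1 motif TGANTCA or to the NF-kB consensus of 10 bases.
Ccl12: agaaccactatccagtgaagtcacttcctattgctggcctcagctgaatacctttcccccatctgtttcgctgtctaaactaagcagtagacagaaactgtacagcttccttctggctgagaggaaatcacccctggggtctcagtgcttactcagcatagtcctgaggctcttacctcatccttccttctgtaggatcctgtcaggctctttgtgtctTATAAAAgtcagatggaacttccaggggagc
Ccl8: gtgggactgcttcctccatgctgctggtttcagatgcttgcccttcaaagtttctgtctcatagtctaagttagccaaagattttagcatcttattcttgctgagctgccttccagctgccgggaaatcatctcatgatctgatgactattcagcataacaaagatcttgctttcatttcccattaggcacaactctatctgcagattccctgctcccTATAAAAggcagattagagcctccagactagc
Ccl9: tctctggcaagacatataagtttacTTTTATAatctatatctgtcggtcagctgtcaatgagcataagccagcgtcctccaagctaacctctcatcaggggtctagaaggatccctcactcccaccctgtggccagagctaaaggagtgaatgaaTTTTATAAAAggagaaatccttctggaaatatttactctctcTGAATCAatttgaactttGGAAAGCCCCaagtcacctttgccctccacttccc
Ccl12 and Ccl8 carried TATAAAA at nearly the same place, 31 and 32 bases before the start. Aligned end to end with gaps allowed, their promoters had 152 identical bases of 250 (60.8%), the highest of the 10 pairs among the 5 promoters, and the other 9 pairs had 46.8% to 56.0%. Ccl9 carried TATAAAA at 92 bases before the start and, read on the opposite strand, at 95 and 225 bases. Of the 5 promoters, Ccl9 alone matched the NF-kB consensus, as GGAAAGCCCC read on the opposite strand 35 bases before the start, and alone matched TGANTCA, as TGAATCA at 53 bases. Those motifs occurred in 7.25% and 6.75% of 32851 promoters of the same length, and TATAAAA, searched for after the sequences were seen, in 4.98%. No match in these 250 bases was found in any of the 5 for TTCNNNNGAA (in 5.85% of promoters), TTCNNNGAA (in 7.02%), which are STAT motifs, or GAAANNGAAA (in 2.98%), the core of the interferon-stimulated response element. A match describes letters only.

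The library totals ran from 113575859 to 156880766 counts, and each member had between 116 counts (Ccl3 in 1 tumour) and 32954 counts (Ccl6 in 1 tumour). Levels are given as CPM, counts scaled to a common library size with TMM factors. The targeted gene C1galt1c1 averaged 19.6 ± 3.05 CPM (SD, n = 6) in the WT tumours and 11.3 ± 0.775 CPM (SD, n = 6) in the Tn tumours. It was lower in every Tn tumour than in any WT tumour, with a log2 difference of -0.80 ± 0.11 (SE; edgeR adjusted p = 0.000201). The epithelial markers Krt18, at 704 to 1417 CPM, and Krt8, at 713 to 1463 CPM, were present in all 12 tumours. Tn tumour 4 stood apart by its B cell marker sum (579 CPM, against at most 2.61 CPM elsewhere), Tn tumour 6 by its mast cell marker sum (249 CPM, against at most 68.5 CPM) and WT tumour 6 by Adipoq, an adipocyte gene (132 CPM, against at most 51.5 CPM). All Tn libraries have lower library numbers than all WT libraries, so an effect of that order cannot be told apart from the group. In bulk tumours fewer cells of a type and less RNA per cell cannot be told apart.

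In Tn tumours 7 of the 10 CC chemokines were higher than in WT tumours, 1 was lower and 2 did not pass the test. Ccl2, Ccl3, Ccl4, Ccl5, Ccl6, Ccl7 and Ccl12 rose by between 1.92-fold (Ccl6) and 4.30-fold (Ccl5), while Ccl11 was 2.49-fold lower, and Ccl8 and Ccl9 did not pass. The call was an edgeR quasi-likelihood adjusted p below 0.05 over all 19255 genes, at which 36.8% of all genes were called, 19.5% as higher and 17.4% as lower. The median log2 fold change of the 10 genes was 1.10, and that of all genes tested was 0.01. All 8 calls held without Tn tumour 4, Tn tumour 6 and WT tumour 6 together. Groups that do not overlap at all were seen for 1 member, Ccl4, with Tn above WT, a pattern found in 8.81% of all genes tested, and for 0 members with Tn below WT, found in 8.35%. At a call with at least a 2-fold change, 6 members rose (Ccl2, Ccl3, Ccl4, Ccl5, Ccl7 and Ccl12) and 1 fell, against 5.6% and 7.13% of all genes tested.

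**Figure D1:**
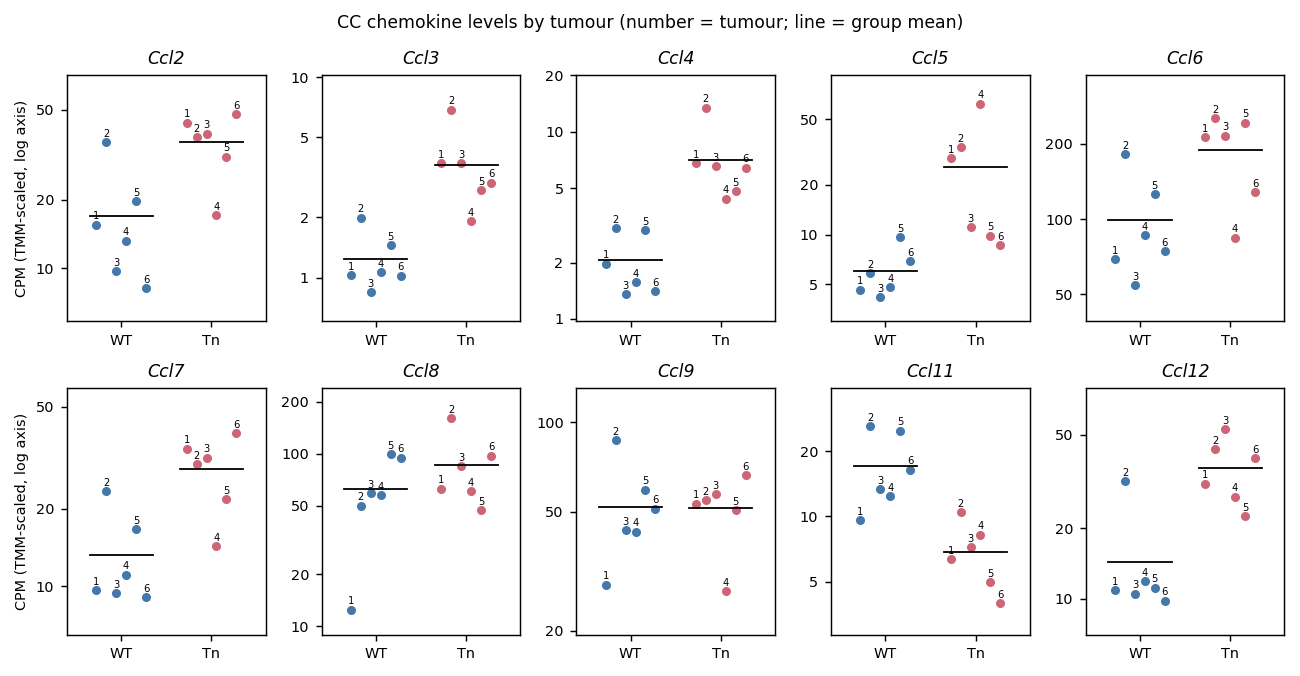
Level of each CC chemokine in every tumour, in TMM-scaled CPM on a log axis, with the tumour number beside each point and a line at the group mean (6 WT and 6 Tn tumours). The Tn points of Ccl4 lie at 4.40 to 13.5 CPM, all above the WT points at 1.36 to 3.05 CPM, and those of Ccl11 lie lower than in WT except for Tn tumour 2 against WT tumour 1.

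The first set are the monocyte chemoattractants Ccl2, Ccl7, Ccl12 and Ccl8. Ccl2, the main ligand of Ccr2 and the signal that brings monocytes out of the blood, lies at chr11:81926397-81928279 (GRCm39, plus strand, ENSMUSG00000035385). Its level was 8.14 CPM at the lowest, 14.4 CPM at the median and 36.0 CPM at the highest in WT tumours, and 17.2, 38.6 and 47.7 CPM in Tn tumours. The groups overlapped: 4 of 6 Tn tumours lay above every WT tumour, Tn tumour 4 was lowest of its group, and WT tumour 2 was high among the WT tumours. The means were 17.1 ± 10.2 CPM (SD, n = 6) and 36.1 ± 10.9 CPM (SD, n = 6). Ccl2 was 2.12-fold higher in Tn, with a log2 difference of 1.08 ± 0.35 (SE; edgeR adjusted p = 0.029; exact permutation adjusted p = 0.0498). This call was not firm. It was lost without any 1 of WT tumours 1, 3 or 4 or Tn tumours 1 or 6, with edgeR adjusted p up to 0.061. The log2 fold changes were 0.94 to 1.45 over all fits with 1 tumour left out.

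Ccl7, a second Ccr2 ligand that also binds Ccr1 and Ccr3, lies next to Ccl2 at chr11:81936532-81938351 (plus strand, ENSMUSG00000035373). WT tumours held 9.06 CPM at the lowest, 10.4 CPM at the median and 23.4 CPM at the highest, and Tn tumours 14.3, 30.7 and 39.4 CPM. It had the same shape as Ccl2, with 4 of 6 Tn tumours above all WT tumours, Tn tumour 4 lowest and WT tumour 2 highest in their groups. From means of 13.2 ± 5.75 CPM and 28.5 ± 9.04 CPM (SD, n = 6 each), Ccl7 was 2.16-fold higher, a log2 difference of 1.11 ± 0.29 (SE; edgeR adjusted p = 0.0103; exact permutation adjusted p = 0.0356).

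Ccl12, a mouse monocyte chemoattractant that also signals through Ccr2, lies at chr11:81992645-81994466 (plus strand, ENSMUSG00000035352). Its WT values were 9.83 CPM at the lowest, 11.01 CPM at the median and 31.7 CPM at the highest, and its Tn values 22.5, 35.5 and 52.9 CPM. WT tumour 2 was the sole WT tumour among the Tn values: the other 5 WT tumours held at most 11.9 CPM, below every Tn tumour, while 3 Tn tumours lay above all 6. The means were 14.3 ± 8.53 CPM and 36.2 ± 11.3 CPM (SD, n = 6 each), a log2 difference of 1.34 ± 0.32 (SE; 2.53-fold; edgeR adjusted p = 0.00631; exact permutation adjusted p = 0.0304). Per length it was the third most abundant member in both groups, after Ccl8 and Ccl6, at 26.7 RPKM (CPM per kilobase of exons) in WT and 67.4 RPKM in Tn.

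Ccl8, which in the mouse acts on Ccr8 as well, lies downstream of Ccl12 at chr11:82006007-82007625 (plus strand, ENSMUSG00000009185). Its WT tumours ran from 12.5 CPM through a median of 58.2 CPM to 99.5 CPM, and its Tn tumours from 47.1 CPM through 73.4 CPM to 160 CPM. The groups overlapped almost entirely, with Tn tumour 2 alone above every WT tumour and WT tumour 1 alone below every Tn tumour. The log2 fold change of Ccl8 was 0.46 ± 0.42 (SE; edgeR adjusted p = 0.414), from means of 62.1 ± 31.9 CPM and 85.3 ± 40.9 CPM (SD, n = 6 each). Per length Ccl8 was the most abundant of the 10 in both groups, at 122 RPKM in WT and 167 RPKM in Tn.

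Markers of monocytes and macrophages, cells that make and follow these ligands, moved too, beside 19.5% of all genes tested that rose and 17.4% that fell. Of 5 monocyte markers 2 rose and 0 fell, and their summed level was 52.4 to 108 CPM in WT and 152 to 426 CPM in Tn. Of 9 macrophage markers 6 rose and 0 fell, with sums of 791 to 1229 CPM and 1206 to 3668 CPM, led by the complement genes C1qa (234 CPM on average in WT and 713 CPM in Tn), C1qc (173 and 536 CPM) and C1qb (145 and 457 CPM). Their part in the rise of Ccl2, Ccl7 and Ccl12 was not tested.

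The second set, Ccl3, Ccl4 and Ccl5, are made by activated macrophages, T cells and natural killer cells. Ccl3, which also binds Ccr1, lies at chr11:83538670-83540191 (minus strand, ENSMUSG00000000982) and was the least abundant member per length, at 1.61 RPKM in WT and 4.77 RPKM in Tn. WT tumours held 0.847 CPM at the lowest, 1.05 CPM at the median and 1.99 CPM at the highest, and Tn tumours 1.92, 3.34 and 6.87 CPM. Tn tumour 4 was the sole Tn tumour under the highest WT tumour, and Tn tumour 2 stood above the rest. Ccl3 was 2.96-fold higher in Tn (1.23 ± 0.419 CPM and 3.65 ± 1.71 CPM, SD, n = 6 each), with a log2 difference of 1.57 ± 0.31 (SE; edgeR adjusted p = 0.00205; exact permutation adjusted p = 0.0195). Strand was not used in counting, and 266 of its 766 exonic bases are overlapped by the antisense lncRNA Gm53692, so reads there cannot be assigned to a strand. The RPKM of Ccl3 was taken over all 766 bases, so its rank per length carries that uncertainty. Gm53692 itself was at 0.0434 to 0.262 CPM.

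Ccl4, the close relative of Ccl3, lies at chr11:83553383-83555509 (plus strand, ENSMUSG00000018930). Its values were 1.36 CPM at the lowest, 1.77 CPM at the median and 3.05 CPM at the highest in WT, and 4.40, 6.49 and 13.5 CPM in Tn. Every Tn tumour lay above every WT tumour, and Tn tumour 2 was again far above the others. The means of 2.06 ± 0.774 CPM and 7.07 ± 3.28 CPM (SD, n = 6 each) gave a 3.44-fold difference, a log2 difference of 1.78 ± 0.31 (SE; edgeR adjusted p = 0.00105). Its exact permutation p was 0.00216, the smallest that 6 tumours against 6 can give (adjusted p = 0.0126).

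Ccl5 (RANTES), a ligand of Ccr1 and Ccr3 that activated T cells and natural killer cells store and release, lies at chr11:83416602-83425942 (minus strand, ENSMUSG00000035042). Its counted exons end at 83421344, inside that span. WT tumours held 4.17 CPM at the lowest, 5.32 CPM at the median and 9.62 CPM at the highest, and Tn tumours 8.66, 20.1 and 62.2 CPM. The Tn tumours split: 1, 2 and 4 held 29.1, 33.7 and 62.2 CPM, whereas 3, 5 and 6 held 11.1, 9.85 and 8.66 CPM, the last of them below WT tumour 5. Ccl5 was thus the most variable member in Tn, with a coefficient of variation of 80.7%, against 25.5% to 47.9% for the other 9. The means were 5.99 ± 2.03 CPM and 25.8 ± 20.8 CPM (SD, n = 6 each), and the log2 fold change was 2.105 ± 0.48 (SE; 4.30-fold; edgeR adjusted p = 0.00514; exact permutation adjusted p = 0.0195). Without Tn tumour 4 it was 1.64 ± 0.39 (SE; edgeR adjusted p = 0.00712).

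Lymphocyte markers were also higher in Tn tumours, beside 19.5% of all genes tested that rose. All 6 T cell markers rose, with summed levels of 3.09 to 13.9 CPM in WT and 30.9 to 300.3 CPM in Tn, and all 6 natural killer cell markers rose (4 without Tn tumour 4, Tn tumour 6 and WT tumour 6), from sums of 5.40 to 15.1 CPM in WT to 33.3 to 122 CPM in Tn. Both sums lay apart between the groups. Tn tumours 1, 2 and 4, the 3 with the most Ccl5, also had the 3 highest sums on both lists, at 68.9, 129 and 300.3 CPM of T cell markers. Ccl3 and Ccl4 did not follow the T cell order: Tn tumour 4, with the highest T cell sum, had the least of both among the Tn tumours, at 1.92 and 4.40 CPM. The natural killer sum was highest in Tn tumour 2, at 122 CPM, which also had the most Ccl3 and Ccl4, at 6.87 and 13.5 CPM. Tn tumour 4 came next on that list, at 69.9 CPM. Cd8a averaged 2.45 CPM in WT and 26.8 CPM in Tn, Cd3g 1.74 and 23.4 CPM, and the perforin gene Prf1 4.27 and 29.6 CPM. The part of these cells in the rise of Ccl3, Ccl4 and Ccl5 was not tested.

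The third set, Ccl6 and Ccl9, are Ccr1 ligands of the mouse that macrophages and other myeloid cells make steadily. Ccl6 lies at chr11:83478708-83483913 (minus strand, ENSMUSG00000018927) and was second to Ccl8 per length, at 55.0 RPKM in WT and 106 RPKM in Tn. WT tumours ran from 54.5 CPM through a median of 80.4 CPM to 182 CPM, and Tn tumours from 84.3 CPM through 214 CPM to 253 CPM. The groups overlapped: Tn tumours 4 (84.3 CPM) and 6 (128 CPM) lay among the WT values, and the other 4 lay above them all. Ccl6 was 1.92-fold higher in Tn (98.8 ± 47.6 CPM and 189 ± 67.9 CPM, SD, n = 6 each), a log2 difference of 0.94 ± 0.33 (SE; edgeR adjusted p = 0.0402). This was the least firm of the 8 calls, since the exact permutation test did not pass (adjusted p = 0.0753), nor did edgeR without any 1 of WT tumours 1, 3, 4 or 6 or Tn tumours 1, 2, 3 or 5 (adjusted p up to 0.0796).

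Ccl9, a neighbour of Ccl6 whose promoter is shown above, lies at chr11:83463745-83473161 (minus strand, ENSMUSG00000019122). Its counted exons end at 83469462, inside that span, and the promoter shown is that of the RefSeq start. Ccl9 held 28.5 CPM at the lowest, 47.3 CPM at the median and 86.9 CPM at the highest in WT tumours, and 27.1, 54.0 and 66.5 CPM in Tn tumours. WT tumour 2 was the highest and Tn tumour 4 the lowest of all 12, so the Tn range lay almost inside the WT range. The log2 fold change was -0.01 ± 0.25 (SE; edgeR adjusted p = 0.973), from means of 52.1 ± 19.9 CPM and 51.6 ± 13.2 CPM (SD, n = 6 each). Its transcript shares a run of 61 identical bases with transcripts of other genes, which can add uncertainty to its counts. Of neutrophil markers, a further myeloid type, 0 of 6 were called, against 36.8% of all genes tested. Their sums were 30.9 to 115 CPM in WT and 29.1 to 175 CPM in Tn. Without Tn tumour 4, the tumour with the highest sum, 3 of the 6 fell, and 5 of the 6 fell without Tn tumours 4 and 6 and WT tumour 6 together. Without Tn tumour 5, 1 rose, Csf3r. Their part in the values of Ccl6 and Ccl9 was not tested.

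Ccl11 (eotaxin), the ligand that draws eosinophils through Ccr3 and that fibroblasts make in many tissues, was the one member that fell. It lies at chr11:81948618-81953781 (plus strand, ENSMUSG00000020676), between Ccl7 and Ccl12. WT tumours held 9.61 CPM at the lowest, 14.9 CPM at the median and 26.1 CPM at the highest, and Tn tumours 3.99, 6.78 and 10.5 CPM. The groups overlapped by 1 tumour on each side, with Tn tumour 2 (10.5 CPM) above WT tumour 1 (9.61 CPM). The means were 17.1 ± 6.84 CPM and 6.87 ± 2.32 CPM (SD, n = 6 each), a log2 difference of -1.32 ± 0.29 (SE; edgeR adjusted p = 0.00392; exact permutation adjusted p = 0.0195).

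Most fibroblast markers moved the same way as Ccl11, beside 17.4% of all genes tested that fell and 19.5% that rose. Of 6 markers 5 fell and 1, Pdgfra, rose, and their summed level was 5913 to 14772 CPM in WT and 2404 to 3718 CPM in Tn, with no overlap. The collagen genes Col1a1 (5221 CPM on average in WT and 1457 CPM in Tn) and Col1a2 (3407 and 933 CPM) and the matrix gene Postn (926 and 342 CPM) were the 3 most abundant. Their part in the fall of Ccl11 was not tested. Eosinophil markers were scarce: all 4 were below 1 CPM in every tumour, Epx, which defines the eosinophil granule, was at 0 in 11 of 12 tumours, and their sum was 0.243 to 0.702 CPM in WT and 0.193 to 1.23 CPM in Tn.

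Summed per length, the 10 chemokines came to 136 to 385 RPKM in WT tumours and 339 to 698 RPKM in Tn tumours. Ccl8 made up a median of 48.6% of the summed RPKM in WT (17.95% to 60.4%) and 33.6% in Tn (25.2% to 44.9%), so its Tn range lay inside its WT range. The shares of Ccl6, with medians of 19.1% and 21.9%, and of Ccl12, with medians of 9.01% and 13.9%, overlapped between the groups as well. The share of Ccl11 was 4.72% to 6.51% in every WT tumour and 0.775% to 2.24% in every Tn tumour, so its share separated the groups where its CPM did not. Ccl9 likewise held 5.09% to 7.42% in WT and 2.57% to 4.60% in Tn, while its CPM did not pass the test. The share of Ccl5 had a median of 2.21% in WT and 3.92% in Tn, and reached 19.1% in Tn tumour 4. These shares are descriptions without a test, and each share depends on the other 9 genes.

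**Figure D2:**
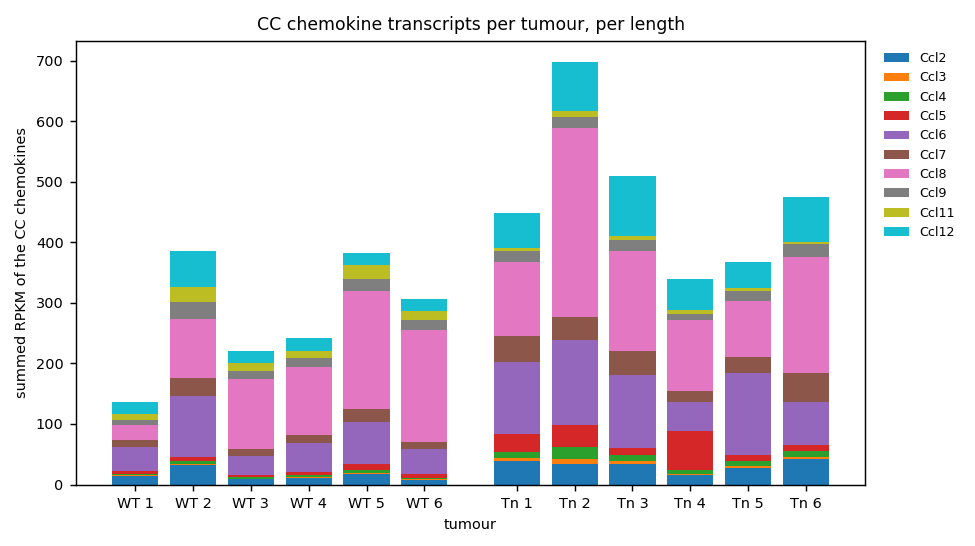
Summed RPKM of the 10 CC chemokines in each tumour, stacked by gene (6 WT tumours on the left, 6 Tn tumours on the right). The sums run from 136 to 385 RPKM in WT and from 339 to 698 RPKM in Tn, Ccl8 is the widest band in most tumours, and the Ccl5 band is widest in Tn tumour 4.

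On chromosome 11 the members sit in 2 blocks of 5 genes, 1.41 Mb apart. The first spans 81.2 kb and holds, in order, Ccl2, Ccl7, Ccl11, Ccl12 and Ccl8, of which 3 rose and 1 fell. The second spans 139 kb and holds Ccl5, Ccl9, Ccl6, Ccl3 and Ccl4, of which 4 rose and 0 fell. Neighbours did not share a direction throughout: Ccl11 fell between Ccl7 and Ccl12, which both rose, and Ccl9 showed no call between Ccl5 and Ccl6, which both rose.

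**Figure D3:**
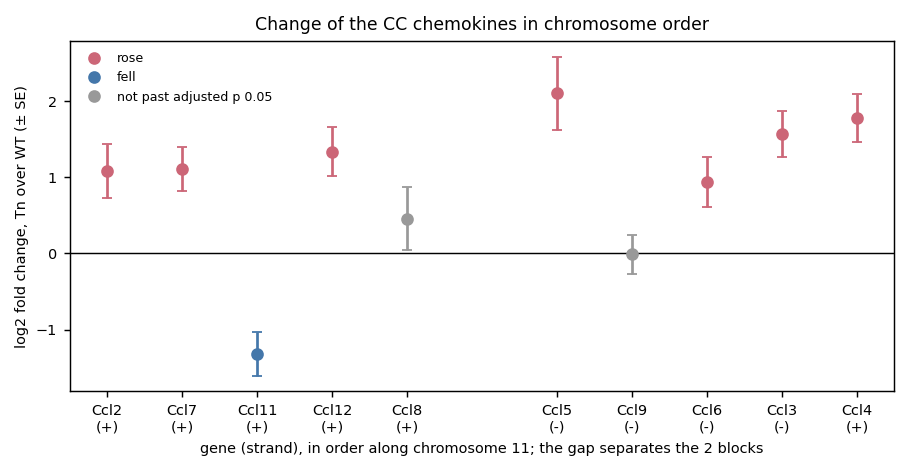
Log2 fold change of each CC chemokine, Tn over WT, with its standard error, in the order of the genes on chromosome 11 (strand in brackets, a gap between the 2 blocks). Ccl11 at -1.32 lies between Ccl7 at 1.11 and Ccl12 at 1.34, and Ccl9 at -0.01 lies between Ccl5 at 2.105 and Ccl6 at 0.94.

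Tumours that were high for 1 member were often high for others. WT tumour 2 was the highest WT tumour for 8 of the 10 genes and WT tumour 5 for the other 2, Ccl5 and Ccl8. Among the Tn tumours, tumour 2 was highest for 5 genes and tumour 4 was lowest for 6, although tumour 4 was highest for Ccl5. As a description over the 12 tumours, the deviations of log2 CPM from the group means were compared by Pearson r (n = 12). They were most alike for Ccl2 with Ccl7 (r = 0.94) and for Ccl3 with Ccl4 (r = 0.94), each near neighbours on the chromosome. Likeness did not follow position throughout. Ccl7 with Ccl9, of different blocks, came next (r = 0.87). Of the other neighbours, r was 0.30 for Ccl7 with Ccl11, 0.46 for Ccl11 with Ccl12 and 0.19 for Ccl12 with Ccl8. In the second block it was -0.31 for Ccl5 with Ccl9, 0.73 for Ccl9 with Ccl6 and 0.83 for Ccl6 with Ccl3. Over the 12 tumours Ccl5 went with few members, with r from -0.31 (Ccl9) to 0.66 (Ccl11). In the WT tumours alone its r ran from 0.01 (Ccl12) to 0.73 (Ccl11), with 0.51 for Ccl9. In the Tn tumours alone it ran from -0.76 (Ccl9) to 0.75 (Ccl11), with n = 6 in each group. These values share each tumour's library and its makeup of cells.

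Among 12979 genes that averaged 1 CPM or more, the same measure gave the 3 most alike genes of each member. Besides Ccl7 and Ccl2 for each other, Ccl2 was most like Picalm (r = 0.91) and Msr1, a macrophage scavenger receptor (r = 0.90), and Ccl7 most like Ch25h, which makes 25-hydroxycholesterol (r = 0.92), and Kcp (r = 0.91). Besides each other, Ccl3 was most like Mthfsd (r = 0.91) and Wipi1 (r = 0.89), and Ccl4 most like Tbxas1, the thromboxane synthase (r = 0.90), and Gatm (r = 0.88). Ccl5 was most like N4bp2l1 (r = 0.96), Slc66a1 (r = 0.96) and Zfp691 (r = 0.95), and Ccl6 most like Dixdc1 (r = 0.88), Clec4d (r = 0.85) and the platelet chemokine Pf4 (r = 0.85). Ccl8 was most like Mrps25 (r = 0.91), Vegfd (r = 0.89) and Nme1 (r = 0.86), and Ccl9 most like P3h3 (r = 0.92), Gas1 (r = 0.90) and Ccl7 (r = 0.87). Ccl11 was most like Arsi (r = 0.94), the pentraxin Ptx3 (r = 0.90) and Ms4a4d (r = 0.90), and Ccl12 most like Gpsm1 (r = 0.91), Wdr5 (r = 0.91) and Cisd2 (r = 0.90). By rank correlation (Spearman rho) over the same tumours, these pairs ran from 0.60 (Ccl12 with Cisd2) to 0.97 (Ccl2 with Ccl7). Some pairs were thus less alike by rank than by r, with rho of 0.64 for Ccl8 with Vegfd. These are ranks among genes over 12 tumours and carry no test.

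The CC chemokine receptors, not only those of these ligands, were read against all genes tested, of which 19.5% rose and 17.4% fell. Of 9 CC chemokine receptors 8 were tested, of which 2 rose (Ccr1 and Ccr8), 1 fell (Ccr3) and 5 did not pass, with a median log2 fold change of 1.29 against 0.01 over all genes tested. The counts in both directions are near the background. Without Tn tumour 5, 6 of the 8 rose and 1 fell. Ccr1, the receptor of Ccl6 and Ccl9 among others, held 34.6 CPM at the lowest, 45.4 CPM at the median and 69.4 CPM at the highest in WT and 47.3, 73.3 and 129 CPM in Tn, a log2 difference of 0.78 ± 0.26 (SE; edgeR adjusted p = 0.0325). Its groups overlapped, and the call was lost without any 1 of WT tumours 1, 3, 4 or 6 or Tn tumours 1 or 2, with adjusted p up to 0.0759, and with no filter on low counts (edgeR adjusted p = 0.0725). Ccr8, which regulatory T cells carry, was low but apart between groups, at 0.0319 to 0.153 CPM in WT and 0.168 to 0.735 CPM in Tn, a log2 difference of 2.50 ± 0.46 (SE; edgeR adjusted p = 0.00142).

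Ccr3, the eotaxin receptor, fell as its ligand Ccl11 did, while its ligands Ccl5 and Ccl7 rose. It held 0.642 CPM at the lowest, 1.30 CPM at the median and 2.08 CPM at the highest in WT tumours, and 0.0767, 0.172 and 0.2301 CPM in Tn tumours. Every Tn tumour lay below every WT tumour, with a log2 difference of -2.98 ± 0.36 (SE; edgeR adjusted p = 0.000106). Ccr2, the receptor of Ccl2, Ccl7 and Ccl12, was looked at after its values were seen: it held 36.9 to 82.2 CPM in WT and 24.7 to 229 CPM in Tn and did not pass, at 0.98 ± 0.46 (SE; edgeR adjusted p = 0.109), although it rose when Tn tumour 5 was left out.

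**Figure D4:**
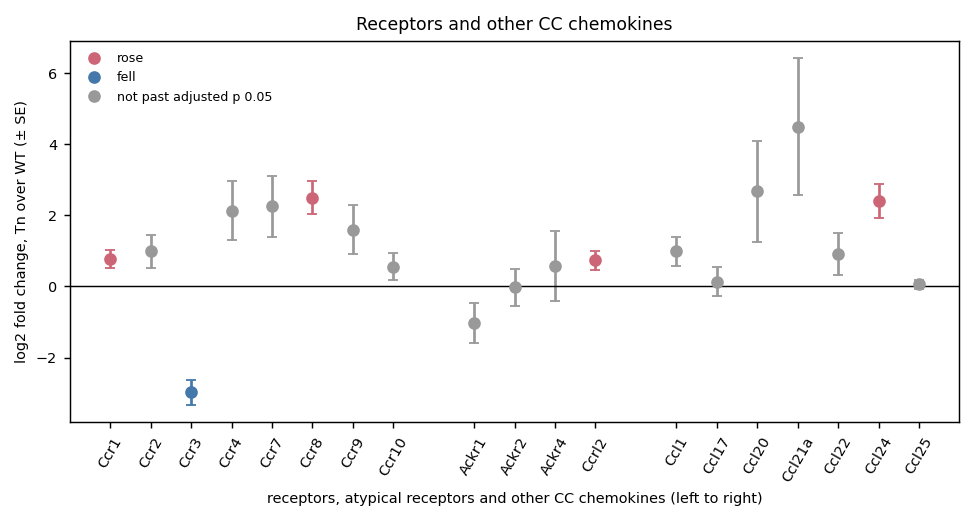
Log2 fold change, Tn over WT, with its standard error, of the tested CC chemokine receptors (left), atypical receptors (middle) and other CC chemokines (right). Ccr3 at -2.98 is the sole gene that fell, and Ccr1, Ccr8, Ccrl2 and Ccl24 rose.

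Of 4 atypical receptors, which bind chemokines without moving the cell, 1 rose, against 19.5% of all genes tested. Ccrl2 held 2.57 CPM at the lowest, 3.49 CPM at the median and 7.01 CPM at the highest in WT and 3.95, 6.13 and 10.7 CPM in Tn, a log2 difference of 0.74 ± 0.27 (SE; edgeR adjusted p = 0.0497). That call was at the threshold and was lost without any 1 of 9 of the 12 tumours (all but WT tumour 5 and Tn tumours 5 and 6), and without Tn tumour 4 Ackr1 fell. Of 11 CC chemokines encoded outside the studied set 7 were tested and 1 rose, Ccl24 (eotaxin-2), another ligand of Ccr3, against 19.5% of all genes tested. Without WT tumour 2, Ccl1 rose as well. Ccl24 held 1.25, 2.76 and 5.45 CPM in WT and 3.25, 14.02 and 29.1 CPM in Tn, a log2 difference of 2.40 ± 0.48 (SE; edgeR adjusted p = 0.00233). The groups of Ccl24 overlapped. The eotaxins Ccl11 and Ccl24 thus moved in opposite directions, and Ccl5 and Ccl7, which also bind Ccr3, rose. Ccl21a and Ccl19, ligands of lymphoid tissue named after their values were seen, reached 268 and 26.9 CPM in Tn tumour 4.

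Of 19 cytokines and transcription factors known to induce or restrain these chemokines 8 rose, 2 fell and 9 did not pass, with a median log2 fold change of 0.29, against 19.5% of all genes tested that rose and 17.4% that fell. The cytokine Tnf rose by 1.13 ± 0.27 on the log2 scale (SE; edgeR adjusted p = 0.00617), from 1.41 to 2.77 CPM in WT to 2.46 to 6.68 CPM in Tn. Ifng rose by 2.54 ± 0.76 (SE; edgeR adjusted p = 0.0202) and had no overlap, at 0 to 0.825 CPM in WT and 0.894 to 4.18 CPM in Tn. With no filter on low counts its call was lost, at 2.55 (edgeR adjusted p = 0.0546). Il13 was at 0 to 0.0823 CPM in WT and 0.107 to 0.445 CPM in Tn, also with no overlap (edgeR adjusted p = 0.00354). Il10 rose by 1.14 ± 0.41 (SE; edgeR adjusted p = 0.0444), a call that was lost without any 1 of 10 of the 12 tumours (all but Tn tumours 1 and 3) and was 0.81 (edgeR adjusted p = 0.1) without Tn tumour 4.

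Of the NF-kB genes, Rela rose by 0.32 ± 0.06 (SE; edgeR adjusted p = 0.0022) with every Tn tumour above every WT tumour, and Relb by 0.45 ± 0.14 (SE; edgeR adjusted p = 0.0267). The call of Relb was lost without WT tumour 3, WT tumour 4 or Tn tumour 6, with adjusted p up to 0.0568, and without Tn tumours 4 and 6 and WT tumour 6 together it was 0.25 (edgeR adjusted p = 0.107). Tnfaip3, an NF-kB target that limits the pathway, fell by 1.26 ± 0.19 on the log2 scale (SE; edgeR adjusted p = 0.000444), from 104 to 158 CPM in WT to 31.1 to 75.9 CPM in Tn. Il6, a further NF-kB target, fell by 1.45 ± 0.24 (SE; edgeR adjusted p = 0.000728) and was likewise lower in every Tn tumour. Of the interferon-linked factors, Irf5 rose by 1.03 ± 0.24 (SE; edgeR adjusted p = 0.00621) and Irf1 by 0.67 ± 0.21 (SE; edgeR adjusted p = 0.0248). The call of Irf1 was lost without Tn tumour 2, at 0.55 (edgeR adjusted p = 0.0528).

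Other cell types that a tumour can hold were measured with the same fit, in which 19.5% of all genes tested rose and 17.4% fell. Of 5 dendritic cell markers 3 rose and 0 fell (summed 42.6 to 65.9 CPM in WT and 57.2 to 124 CPM in Tn), and 1 to 4 rose with 1 tumour left out. Of 5 mast cell markers 2 rose, with sums of 5.32 to 26.6 CPM in WT and 5.07 to 249 CPM in Tn, and 0 to 4 rose with 1 tumour left out, the lowest count being that without Tn tumour 6. Of 5 B cell markers 3 were tested and rose, with sums of 0.565 to 1.24 CPM in WT and 1.06 to 579 CPM in Tn, and 2 of these 3 rose without Tn tumour 4, the highest. Of 5 endothelial markers 4 fell and 0 rose (239 to 426 CPM and 164 to 304 CPM). Of 5 epithelial markers 1, Cldn3, fell, a count near the share of all genes tested. The epithelial sums were 1834 to 3764 CPM in WT and 1723 to 3183 CPM in Tn. The part of these cell types in the changes of the CC chemokines was not tested.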

How the data were processed

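RNA-seq counts of 12 mouse tumours (6 WT, 6 Tn) were used. Per the labels' protocols, poly(A) RNA was sequenced as read pairs from stranded libraries in 1 batch. Per the submitters' processing notes, reads passed FastQC and fastp 0.23 and were aligned to GRCm39 with STAR 2.7.11a. The authors' deposited values are raw counts per gene, made, per the file headers, with featureCounts 2.1.1 over Ensembl 112 exons, without strand, with both mates required to map, and without the option that counts a pair once, so a pair can add 2 counts. Of 57186 gene identifiers, 56630 matched a symbol of a later GRCm39 annotation. The gene spans given are of that annotation, and the counted exons of some members end inside them.

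The counts were fitted with edgeR 4.0.16 in R 4.3.3 (filterByExpr by group, TMM, robust quasi-likelihood), two-sided, and Benjamini-Hochberg adjustment covered all 19255 genes tested. CPM are TMM-scaled, and RPKM are CPM per kilobase of the deposited length. Log2 CPM has a prior count of 2, and exact two-sided permutation tests used all 924 assignments. The fit was tested on simulated data. The biological coefficient of variation was 0.358, and libraries of a group differed beyond sampling noise (chi-square per degree of freedom at least 41.4). Whether tumours came from separate mice is not stated, so p-values measure the spread between these samples. Named were all members, C1galt1c1, every called gene of the receptor, chemokine and inducer lists, up to 3 most abundant genes of a marker list, and the 3 genes most like each member; further genes (Adipoq, Ackr1, Ccr2, Ccl1, Ccl19, Ccl21a, Cldn3, Csf3r, Epx, Pdgfra) were named after their values were seen. Of the receptor and inducer lists, 2 genes are not reported here. Promoters are RefSeq sequences of GRCm38.p6, searched on both strands, motifs allowed to overlap. The members and lists were chosen with earlier results of these data known. Alternatives were other scalings, filters and tools (DESeq2 1.42.0, limma 3.58.1), an adjusted p below 0.01, a replicate block, and tumours left out.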

Additional observations from a re-analysis of the deposited data

Results flagged for a closer look

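A tumour far from the others of its group was looked for in the 10 CC chemokines, C1galt1c1 and the 15 called genes of the pathway lists, in 52 groups of 6 tumours, and 6 were found. For normally distributed values chance alone gives about 1 in 20 groups. Whether these CPM values are so distributed was not tested, and all 6 found were the highest of their group.

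Among the CC chemokines, Ccl3 was at 6.87 CPM in Tn tumour 2 with the next Tn tumour at 3.71 CPM, and Ccl4 at 13.5 CPM in the same tumour with the next at 6.78 CPM. Ccl12 was at 31.7 CPM in WT tumour 2, with the next WT tumour at 11.9 CPM. Outside them, C1galt1c1 was at 12.9 CPM in Tn tumour 1 (next 11.2 CPM), Ccrl2 at 7.01 CPM in WT tumour 5 (next 4.13 CPM) and Il13 at 0.0823 CPM in WT tumour 1 (next 0.0159 CPM).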

How the results depend on the processing

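Of 220 values of the 10 CC chemokines under the alternatives, 200 stayed on their side of the threshold, 20 kept direction but no longer passed, and 0 called values reversed (Ccl9, not called, took either sign, from -0.13 to 0.20). Those 20 belonged to Ccl2, Ccl6 and Ccl7. Ccl2 did not pass with no filter on low counts (1.09, edgeR adjusted p = 0.0704), and with 1 tumour left out it ran from 0.94 to 1.45. Ccl6 did not pass with upper-quartile scaling (0.88, edgeR adjusted p = 0.0526), with no filter (0.95, edgeR adjusted p = 0.097) or by the exact permutation test (0.96, adjusted p = 0.0753), and with 1 tumour left out it ran from 0.82 to 1.22. At an adjusted p below 0.01, Ccl2 (1.08), Ccl6 (0.94) and Ccl7 (1.11) did not pass, 4 CC chemokines rose, and of all genes 2109 rose and 1916 fell, against 3752 and 3342 at 0.05. With 1 tumour left out, 5 to 7 CC chemokines rose and 1 fell, and of all genes 3210 to 3778 rose and 2833 to 3283 fell. The causes were not tested. Scalings moved the median of all genes by less than 0.1. With the replicate block, log2 fold changes of the 8 called members still passed (Ccl5 1.78, edgeR adjusted p = 0.0369), but those of Ccrl2, Il10 and Relb did not. With no filter, Ccr1, Ccrl2, Il10 and Ifng also lost their calls, with upper-quartile scaling Ccrl2 and Il10, by the exact permutation test Ccr1, Ccrl2 and Il10, with RLE scaling or a mean of at least 1 CPM Ccrl2, with limma Il10, and without Tn tumours 4 and 6 and WT tumour 6 Ccrl2, Il10 and Relb. No sign was seen that the numbers pair the tumours: correlations of same-numbered tumours were -0.12 to 0.16. Of 6 Tn tumours 1 correlated best with its own number. Such correlations cannot exclude a pairing. Each member had at least 116 counts in every tumour, where a pair can add 2 counts, whereas Il13, Ccr8 and eosinophil markers lay below 1 CPM. Whether depth limited a call was not tested. Il10 and Ccr3 averaged below 1 CPM over all tumours.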
